A study of Mus musculus with 48 samples.

Results

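Open chromatin was compared between tumors that arose after Ad-CMV-Cre and tumors that arose after Ad-CGRP-Cre, through the pooled list of accessible sites that was deposited for each vector. The sites are summits, the single-base centres of ATAC-seq peaks, on mouse build mm9. The CMV pool has 251512 summits and the CGRP pool 172434, together 423946 of the 630424 summits in the series; the remaining 206478 belong to a pool of both vectors. The members were taken by list, the 100000 best-scoring summits of each list (the top summits) were compared, and a summit counted as shared when the other list had a summit within 250 bp. A top summit with none within 250 bp anywhere in the other list is called CMV-only or CGRP-only.

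ATAC-seq reads out where the transposase Tn5 can reach DNA, which marks active promoters, enhancers and other regulatory elements. Small cell lung cancer is a neuroendocrine tumor, and its usual mouse model loses p53 and Rb in the lung epithelium. The CMV promoter drives Cre in many kinds of infected lung cell. The promoter of CGRP, a peptide made by pulmonary neuroendocrine cells, restricts Cre to those cells, so the vectors differ in the cells from which a tumor can start.

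All libraries carry the genotype Trp53-/-;Rb1-/-;p130-/-;R26mG. The CMV pool joins 19 libraries of sample preparation batch 1, from 9 lung tumors and 10 liver metastases, with Ad-CMV-Cre. The CGRP pool joins 14 libraries of batch 2, all initiated with Ad-CGRP-Cre, 7 from the lung and 7 from liver metastases. Labels mark 15 of the 19 CMV-pool libraries as low in enrichment and none of the CGRP pool. Nfib, a transcription factor gene on chromosome 4, is labelled amplified in 8 CMV-pool libraries and in 1 CGRP-pool library. The labels give a hyperaccessible chromatin state to the same number of CMV-pool libraries, 8, and to 0 of the CGRP pool. The 19 CMV libraries carry 15 distinct title codes, 4 of them used for 2 libraries each, so some may come from the same tumor. Sequencing batches also differ. The CMV pool was sequenced in batches 1 and 3 (4 libraries in batch 3) and the CGRP pool in batch 2. All 15 libraries of the pool of both vectors were sequenced in batch 3. Each vector is thus represented by 1 pooled list without replicates. Vector, preparation batch, sequencing batch, Nfib amplification and enrichment cannot be told apart. No test between vectors can be made, and intervals below cover counting error only.

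The strength of peaks differed between the lists. The score of a summit, −log10 of its q-value, had a median of 8.677 in the CMV pool and 24.32 in the CGRP pool, and summit 100000 had a score of 13.67967 in the CMV list and 16.27916 in the CGRP list. Scores depend on the number of reads in a pool, which is unknown here, so summits were compared by rank within their list. At the CMV limit 742 summits tied and were taken in file order.

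At equal list length, most top summits were common to both vectors. Of the top CMV summits 65.1% (95% Wilson interval 64.8% to 65.4%) had a top CGRP summit within 250 bp, and of the top CGRP summits 64.5% (64.2% to 64.8%) had a top CMV summit. Shared summits sat close together, with a median distance of 21.0 bp and an upper quartile of 42.0 bp from either side. Against the other list in full, 77156 top CMV summits (77.2%) and 86211 top CGRP summits (86.2%) were shared. That left 22844 CMV-only summits (22.8% of the top list) and 13789 CGRP-only summits (13.8%). The gap between those counts moved with list length: with the CMV list shortened to the 172434 summits of the CGRP list, 19151 top summits were CGRP-only. The limit of 250 bp fell in a sparse range, with 967 top CMV summits in the last 50 bp inside it and 610 in the first 50 bp outside, and 827 and 530 top CGRP summits.

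The strongest sites of the CGRP pool were nearly all present in the CMV pool, while the converse held less fully. Among the first 10000 CGRP summits 99.8% (interval 99.7% to 99.9%) had a CMV summit of any score, and among the first 10000 CMV summits 96.9% (96.5% to 97.2%) had a CGRP summit. For ranks 40001 to 50000 the shares were 90.5% and 76.9%. For ranks 90001 to 100000 they were 67.1% for CGRP and 61.7% for CMV summits. Against top summits alone, the order turned along the list: the first 10000 were shared in 99.6% (CGRP) and 93.1% (CMV), and the last 10000 in 31.2% (CGRP) and 42.3% (CMV).

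**Figure D1:**
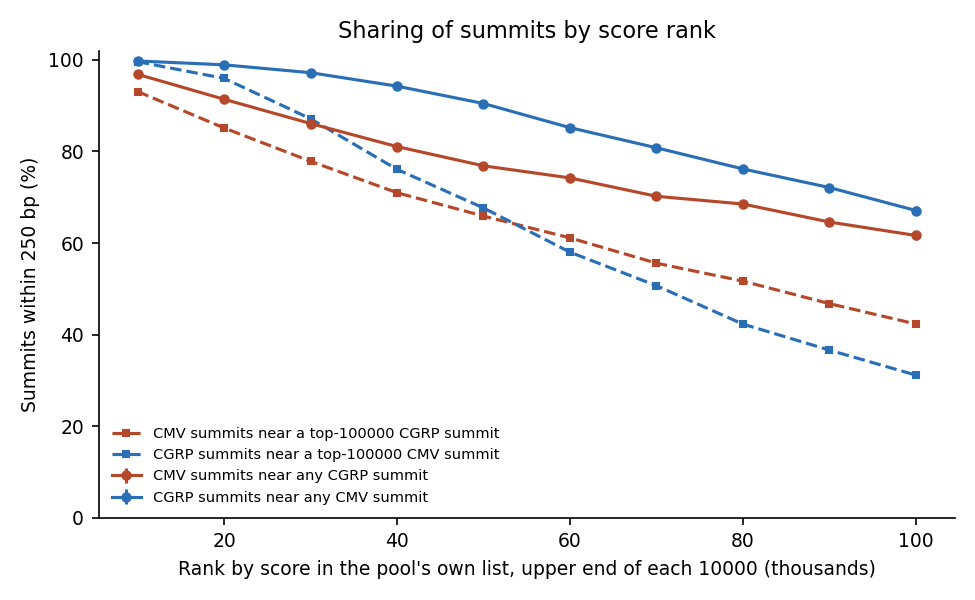
Share of summits (%, vertical axis) with a summit of the other pool within 250 bp, for each 10000 summits by score rank (horizontal axis, in units of 1000). Solid lines use the other list in full with 95% Wilson intervals, and dashed lines its top 100000; sharing falls from 99.8% to 67.1% for CGRP and from 96.9% to 61.7% for CMV summits.

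CMV-only sites were more often remote from any CGRP site than the reverse. Of 22844 CMV-only summits, 13028 (57.0%) lay over 5 kb from every CGRP summit, and 1935 lay over 50 kb away. Of 13789 CGRP-only summits, 4421 (32.1%) lay over 5 kb from every CMV summit, and 104 over 50 kb away. Between top lists, which have equal length, the same classes held 24220 CMV and 18961 CGRP summits over 5 kb away, of which 5671 and 996 were over 50 kb away. Within the first 20000 ranks the contrast was wide. There, 1173 summits were CMV-only, 772 of them over 5 kb away, against 130 CGRP-only summits, of which 117 lay within 1000 bp of a CMV summit and 6 over 5 kb away. The best-ranked CGRP summit at such a distance stood at rank 13604, and the best CMV one at rank 97. That CMV summit lay on chromosome 4 between 80 and 88 Mb, and the best one outside that stretch stood at rank 1189. The stretch held 14 of the 16 CMV-only summits in the first 1000 ranks.

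The best-placed sites common to both pools held extreme scores and none entered the authors' merged peaks. The first on chromosome 12 at 98299784 had a score of 163480 in the CMV pool and 154183 in the CGRP pool, rank 1 in both. Chromosome 2 at 98507247 and 98506977 followed at ranks 2 and 3 in both lists. Chromosome 9 at 35113021 (ranks 6 and 4) and chromosome 1 at 24620119 (ranks 5 and 6) completed the leading 5. Each had a mixed-pool summit within 30 bp at rank 7 or better. By contrast, 99% of CMV summits scored below 415.7 and 99% of CGRP summits below 1470. No regions were excluded from the lists here, so whether these sites are regulatory elements or artefacts was not examined.

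Most of the leading CMV-only sites lay in one stretch of chromosome 4. The first, at 85483668, had a score of 1795 (rank 97), with the nearest CGRP summit 6069 bp away at a score of 25.65 and a mixed-pool summit 27 bp away at rank 22317. Chromosome 4 at 83602483 (score 1571, rank 115), 84851496 (1492, rank 125) and 83636222 (1453, rank 133) had CGRP summits 335, 278 and 357 bp away. The remaining one of the leading 5, chromosome 2 at 98505281 (1775, rank 100), lay 1251 bp from a CGRP summit of rank 50, near the extreme pair above. Of CMV-only sites over 5 kb from a CGRP summit, chromosome 4 held all of the first 5: besides 85483668 they were 84617719 (rank 459), 85770476 (rank 613), 125297727 (rank 1189) and 83804397 (rank 1329).

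From 80 to 88 Mb, chromosome 4 held 1044 top CMV summits against 325 top CGRP and 519 top mixed-pool summits. CMV-only summits there numbered 578, or 2.53% of the total, and 98 of them were among the first 20000 ranks, against 32 CGRP-only summits. This stretch was outlined after its values were seen, and none of the merged peaks used here lies in it, so it has no values from the authors' comparisons. Nfib amplification is labelled in 8 of 19 CMV-pool, 6 of 15 mixed-pool and 1 of 14 CGRP-pool libraries; its part in these counts was not tested.

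The leading CGRP-only sites all lay within 500 bp of a CMV summit, as did 3 of the 5 leading CMV-only sites of a CGRP summit. The first 5 by score lay on chromosome 1 at 24618886 (rank 23), chromosome 13 at 81850375 (rank 1448), chromosome 9 at 3018034 (rank 3301), chromosome 16 at 70314589 (rank 3981) and chromosome 11 at 49057766 (rank 4177). Their nearest CMV summits were 262, 253, 472, 265 and 304 bp away, against the limit of 250 bp for sharing. All these neighbors stood at rank 3486 or better in the CMV list. Of these sites, the chromosome 13 one was in a merged peak.

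Remote CGRP-only sites, those over 5 kb from every CMV summit, began at rank 13604 and had a median rank of 77984. They were led by chromosome 7 at 28037119 (score 438.8, rank 13604, 5188 bp from a CMV summit of score 14.43). On chromosome 6 at 82902324 (score 375.9, rank 15931) the nearest CMV summit was 12589 bp away, and in the authors' deposited table the merged peak there was lower with Nfib amplification, at -4.94 on the log2 scale (SE 0.69, adjusted p = 2.515e-10). Chromosome 9 at 31256951 (373, rank 16052) was 13902 bp away, with -3.24 for the same contrast (SE 0.64, adjusted p = 9.109e-06), again from the authors' deposited table. Chromosome 12 at 25375402 (372, rank 16096) and chromosome X at 98846758 (327.5, rank 18287) were in no merged peak. All 5 had a mixed-pool summit within 84 bp.

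Outside the chromosome 4 stretch, the leading remote CMV-only sites in merged peaks were chosen after their values were seen. They lay on chromosome 12 at 51121145 (rank 2309, 43752 bp from a CGRP summit), chromosome 2 at 43672903 (rank 2443), 134099712 (rank 2451) and 116353850 (rank 2749), and chromosome 16 at 66892794 (rank 2731). In the authors' deposited table each was higher with Nfib amplification: the log2 values, in that order, were 3.60 (SE 0.98), 3.56 (SE 0.96), 3.66 (SE 1.01), 4.80 (SE 0.99) and 3.57 (SE 1.01), and the adjusted p ran from 1.995e-05 to 0.001798. In the liver comparison the authors' deposited table gave them -1.56 to 0.50, with adjusted p of 0.6736 or more.

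The mixed pool, prepared in batch 3 from 11 CMV and 4 CGRP libraries, also held most pool-only sites. A mixed-pool summit lay within 250 bp of 76.2% of CMV-only summits (interval 75.7% to 76.8%) and of 84.4% of CGRP-only summits (83.8% to 85.0%), against 98.6% and 98.7% of shared top summits. Among the first 30000 CMV ranks the share was 90.5% to 92.4% in each 10000, and in the last 10000 it was 62.7%. Of CGRP-only summits in the last 10000 ranks, 74.4% had one. Pool-only sites ranked lower than shared sites both in their own pool and in the mixed pool. Their median own ranks were 67108 (CMV-only) and 76864 (CGRP-only), against 43853.5 and 44455 for shared sites. In the mixed pool the matched summits had median ranks of 104730 for CMV-only and 108503 for CGRP-only, against 41230 and 46589 for shared sites. Read from the mixed pool, 83.1% of its top 100000 summits had both a CMV and a CGRP summit, 9.97% a CMV summit alone, 5.57% a CGRP summit alone and 1.38% neither.

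Chromosomes differed more in their CMV-only than in their CGRP-only share. Over 20 chromosomes (the autosomes and X), CMV-only summits made up 14.9% to 28.7% of top CMV summits, and CGRP-only summits 11.5% to 15.7% of top CGRP summits. The CMV-only share was highest on chromosome 16 (28.7%), chromosome 18 (28.3%) and chromosome X (28.0%), and lowest on chromosome 7 (14.9%) and chromosome 11 (15.8%). Chromosome 7 was the 1 chromosome of 20 where the CGRP-only share (15.2%) was the greater. Top CMV summits outnumbered top CGRP summits on chromosome 18 (4234 to 3603) and were outnumbered on chromosome 7 (4905 to 6033) and chromosome 11 (4995 to 5842). On chromosome Y and its unplaced sequence there were 5 top CMV, 41 top CGRP and 30 top mixed-pool summits; the labels used here give no sex of the animals.

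**Figure D2:**
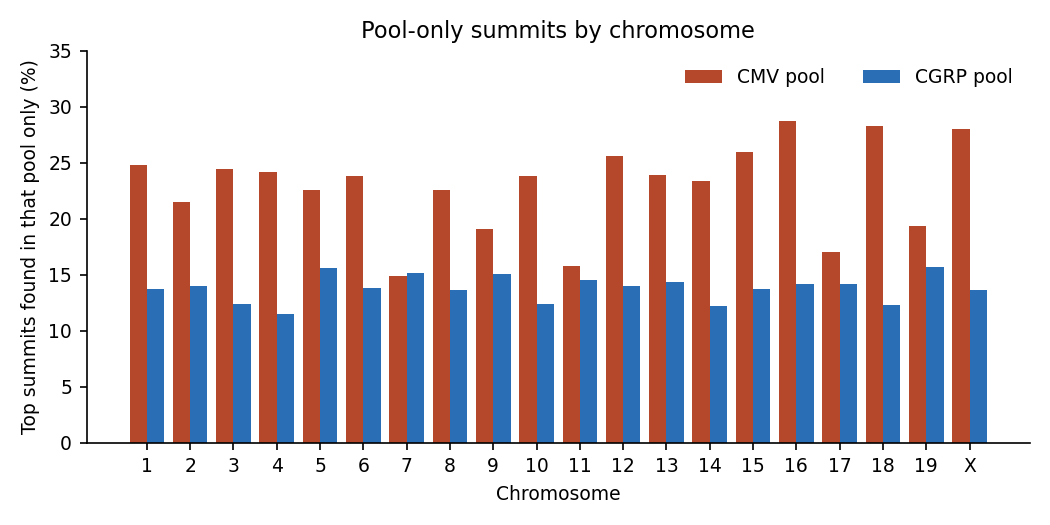
Percentage of each pool's top 100000 summits found in that pool only (vertical axis) by chromosome (horizontal axis), CMV pool in red and CGRP pool in blue. CMV bars span 14.9% to 28.7% and CGRP bars 11.5% to 15.7%, and the CMV bar is the taller on 19 of 20 chromosomes.

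CMV-pool summits were relatively more frequent where accessible sites were sparse. Windows of 1 Mb were ordered by their number of top mixed-pool summits, a count from libraries in neither pool, and split into quintiles. In the sparsest quintile (1 to 16 mixed-pool summits a window) there were 5289 top CMV and 3268 top CGRP summits, a ratio of 1.62. In the densest quintile (60 to 190) there were 32606 and 38759, a ratio of 0.841. The ratios between were 1.37, 1.10 and 0.937, so the order held across all quintiles. CMV summits were the more numerous in 291 of 502 sparsest windows and in 107 of 502 densest windows.

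The CMV-only share followed the same order. It was 44.3% (interval 42.95% to 45.6%) in the sparsest quintile, then 34.1%, 26.0% and 19.6%, and 14.8% (14.5% to 15.2%) in the densest. The CGRP-only share stayed between 11.5% and 14.4%. In the authors' deposited table, the median log2 fold change with Nfib amplification was 1.40 over 5871 merged peaks of the sparsest quintile and 0.21 over 36109 of the densest. The share called higher in the authors' deposited table did not follow that order: from sparsest to densest it was 36.5%, 40.1%, 39.5%, 33.5% and 28.4%. The share called lower there rose at each step, from 4.85% through 6.89%, 10.1% and 13.3% to 16.6%.

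**Figure D3:**
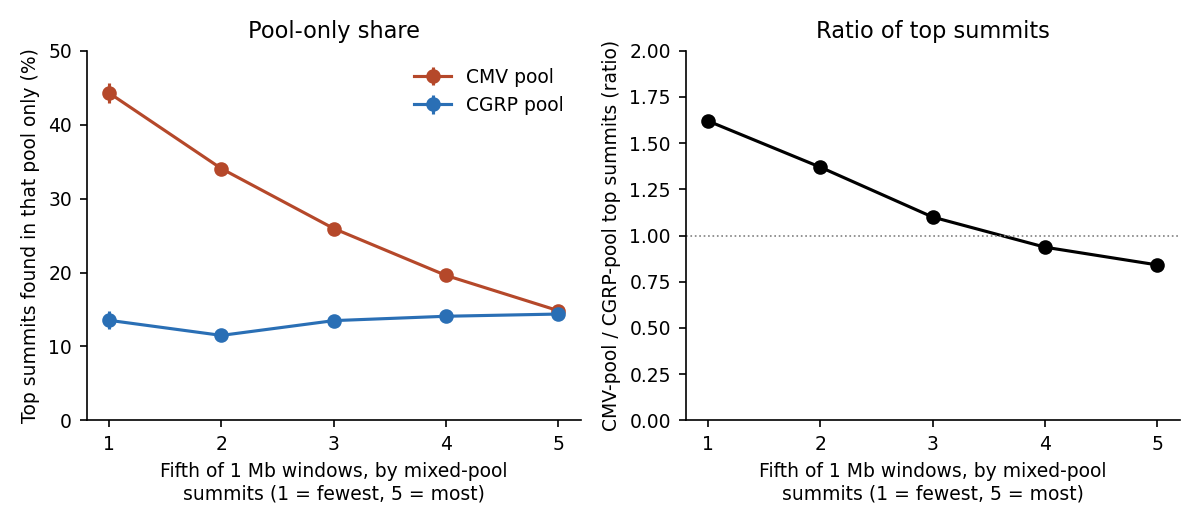
Left, percentage of each pool's top summits found in that pool only, with 95% Wilson intervals; right, ratio of CMV-pool to CGRP-pool top summits; both by quintiles of 1 Mb windows ordered by mixed-pool summits (horizontal axis). The CMV-only share falls from 44.3% to 14.8% and the ratio from 1.62 to 0.841, while the CGRP-only share stays between 11.5% and 14.4%.

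Over 2545 windows, the excess of CMV-only over CGRP-only summits had a median of 2 and quartiles of -3 and 10, and ran from -26 to 122. The 5 windows with the greatest CMV excess were all on chromosome 4. They began at 81 Mb (124 CMV-only, 2 CGRP-only), 85 Mb (99 and 1), 83 Mb (79 and 2), 84 Mb (73 and 3) and, outside the stretch above, 125 Mb (70 and 8). On other chromosomes, and chosen after their values were seen, the leading windows were chromosome 1 from 131 Mb (37 and 0), chromosome 8 from 29 Mb (37 and 0) and chromosome 10 from 109 Mb (38 and 1). In these 3 windows the authors' deposited table called 32 of 60, 54 of 60 and 54 of 82 merged peaks higher in Nfib-amplified CMV libraries and 1, 0 and 0 lower, where 34.3% of all tested peaks were higher and 12.2% lower. These windows were picked for their summits and the counts were not tested.

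CGRP excess was smaller. It was led by chromosome 13 from 52 Mb (26 CGRP-only, 0 CMV-only), chromosome 7 from 53 Mb (24 and 0), chromosome 6 from 134 Mb (28 and 4) and chromosome 11 from 3 Mb (25 and 1). Chromosome 13 from 63 Mb (24 and 2) and chromosome 4 from 150 Mb (23 and 1) tied for the next place. For the chromosome 13 (52 Mb), 6, 11 and 4 windows, the authors' deposited table listed 25 of 62, 30 of 104, 21 of 75 and 36 of 96 merged peaks as lower with Nfib amplification and 6, 11, 1 and 3 as higher, against the same 12.2% lower and 34.3% higher over all peaks. None of the merged peaks used here lies in the chromosome 7 window or in the chromosome 13 window from 63 Mb.

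Unbroken runs of one pool's summits were longer for the CMV pool. With both top lists in joint order along the genome, 289 runs of 10 or more consecutive CMV summits held 3983 summits, and 21 CGRP runs held 246. The longest CMV run had 37 summits over 917 kb on chromosome 18 from 30690025 to 31606987, where the full CGRP list had 4 summits and the mixed pool 23 top summits. Next came 32 summits over 849 kb on chromosome 1 from 68305978 to 69155174, with 10 CGRP summits of any score; the authors' deposited table called 23 of the 37 merged peaks there higher with Nfib amplification and 0 lower (34.3% and 12.2% over all peaks). Chromosome 5 from 83267514 to 84229229 held 29 summits, and runs on chromosome 10 (109358033 to 109860024) and chromosome 16 (53257335 to 54928546) held 28 each. The longest CGRP run had 16 summits over 478 kb on chromosome 4 from 42334773 to 42812520, but the full CMV list had 19 summits there. Runs of 15 followed on chromosome 17 (34355879 to 34548310) and chromosome 9 (109048374 to 109273038).

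The same sites were then read in the authors' comparison of CMV tumors with and without Nfib amplification. Of the 14 libraries whose labels name that table, 11 are in the mixed pool, 3 in the CMV pool (2 of them Nfib-amplified) and 0 in the CGRP pool. CGRP-only sites are defined by absence from the CMV list, so both pool-only sets rest in part on libraries of this comparison. The CGRP pool itself holds none of them. A CMV-only site has no CGRP-pool summit within 250 bp, so a merged peak there rests on the CMV and mixed pools. Those pools hold every library of the comparison. Shares at CMV-only peaks thus describe sites found in part through the compared libraries. A merged peak of 501 bp held 13584 of the CMV-only summits (59.5%), 5587 of the CGRP-only summits (40.5%) and 72.0% and 70.4% of the shared CMV and CGRP summits; sites outside merged peaks have no such value.

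Most merged peaks with a CMV-only summit were higher with Nfib amplification. In the authors' deposited table, 11112 of 13228 tested peaks with a CMV-only summit (84.0%) were higher in Nfib-amplified libraries and 20 (0.151%) lower, where 34.3% and 12.2% of all tested peaks were higher and lower. Their median log2 fold change was 3.10 (quartiles 2.35 and 3.82, median SE 0.89) in the authors' deposited table, against 0.60 over all peaks. CGRP-only sites went the other way: of 5511 tested peaks, 2506 (45.5%) were lower and 159 (2.89%) higher in the authors' deposited table, with a median of -1.21 (quartiles -2.10 and -0.30, median SE 0.62). Peaks whose summits were in both top lists stood between, with 29.1% higher, 14.1% lower and a median of 0.25 in the authors' deposited table. The contrast was smaller at pool-only peaks without a mixed-pool summit. There, 56.2% of 2026 CMV-only peaks were higher and 0.296% lower, and 18.2% of 445 CGRP-only peaks were lower and 5.84% higher. With such a summit, 89.0% of 11216 CMV-only peaks were higher and 0.125% lower. Of 5068 CGRP-only peaks with such a summit, 47.9% were lower and 2.62% higher. The mixed pool holds 11 of the 14 libraries of this comparison, 6 of them Nfib-amplified, so the split rests on the compared libraries. In both sets, peaks without a mixed-pool summit also had the lower median of the authors' mean count. The difference between peaks with and without such a summit is therefore a description and no independent result. All these shares are from the authors' deposited table. Peaks are not replicates, and these shares were not tested.

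Taken as whole sets, CMV-only and CGRP-only peaks showed the contrast at each level of mean count. The mean normalised count, which the authors averaged over libraries, had a median of 15.2 at CMV-only, 16.5 at CGRP-only and 53.0 at shared peaks. In the lowest quartile of merged peaks by mean count, 66.5% of CMV-only and 1.62% of CGRP-only peaks were higher in the authors' deposited table, against 28.6% of all peaks there. In the third quartile, 94.8% of CMV-only and 2.90% of CGRP-only peaks were higher, against 38.4%, and 58.7% of CGRP-only peaks were lower, against 14.5%. In the highest quartile it was narrower: 78.2% of CMV-only and 15.9% of CGRP-only peaks were higher, against 29.8%. There, 39.7% of CGRP-only peaks were lower, against 20.8%. At peaks without a mixed-pool summit, a split that rests on the compared libraries, the contrast did not hold in that quartile. Of 55 such CMV-only peaks, 21.8% were higher and 7.27% lower. Of 41 such CGRP-only peaks, 31.7% were higher and 9.76% lower, against 29.8% and 20.8% of all peaks there.

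**Figure D4:**
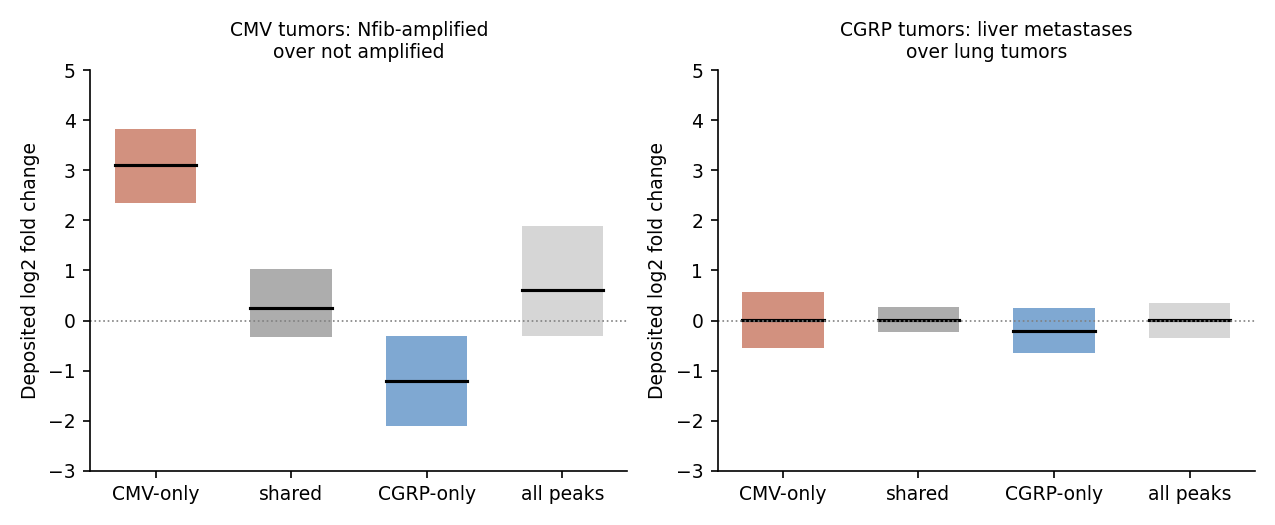
Log2 fold changes from the authors' deposited tables (vertical axis) at merged peaks with CMV-only, shared and CGRP-only summits and at all merged peaks, for the Nfib comparison (left) and the liver comparison (right). Boxes span the quartiles and lines mark medians: 3.10, 0.25, -1.21 and 0.60 on the left, and 0.02, 0.02, -0.20 and 0.01 on the right. Both comparisons share libraries with the pools that define these sets.

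Among shared sites, the difference in rank followed the same axis. Mutually nearest top summits formed 63865 pairs, with a median absolute rank difference of 12715. Spearman's rho between the ranks was 0.637 across these pairs, as a description of sites that were all accessible in both pools. Where the CMV rank was better by over 50000, 1328 of 1530 tested peaks (86.8%) were higher and 0 lower with Nfib amplification in the authors' deposited table, and the median was 2.42 on the log2 scale (median SE 0.65). Where the CGRP rank was better by 50000 or more, 1101 of 2067 (53.3%) were lower and 23 (1.11%) higher in the authors' deposited table, with a median of -1.09 (median SE 0.45). Pairs within 10000 ranks had 24.7% higher and 12.2% lower in the authors' deposited table, and a median of 0.19. The CMV ranks draw on 3 libraries of the Nfib comparison, 2 of them Nfib-amplified. The rank difference is therefore not independent of that comparison, and these shares were not tested.

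**Figure D5:**
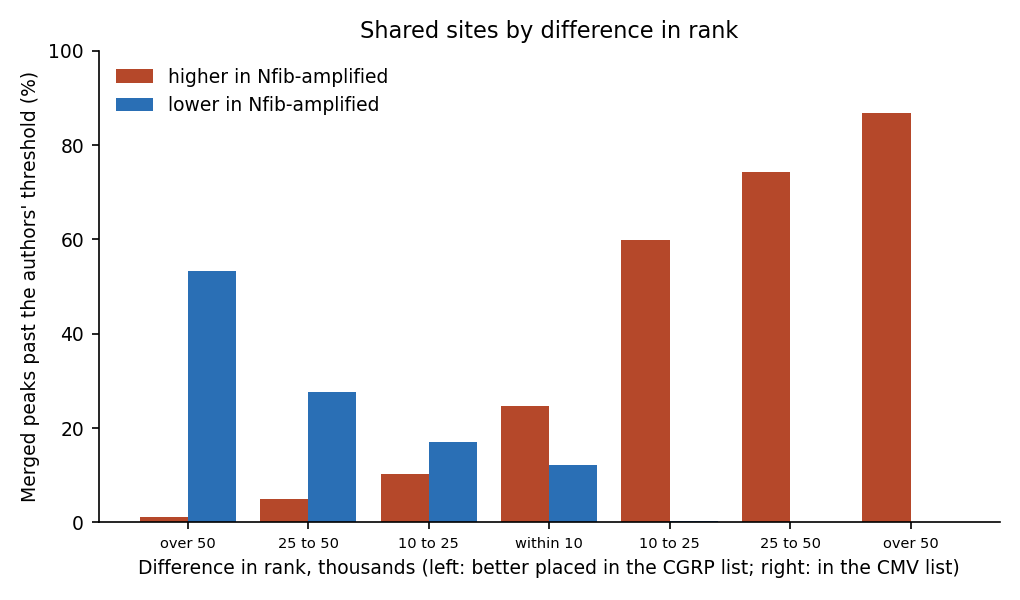
Percentage of merged peaks higher (red) or lower (blue) in Nfib-amplified CMV libraries at the authors' adjusted p under 0.05 (vertical axis), for shared sites grouped by the difference between their CGRP and CMV ranks in units of 1000 (horizontal axis). The share higher runs from 1.11% where the CGRP list placed the site over 50000 ranks ahead to 86.8% where the CMV list did. The CMV ranks rest in part on libraries of the same comparison.

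Individual pairs showed how far a shared site could move. On chromosome 14 at 106576292, the CMV score was 567.1 (rank 1205) and the CGRP score 17.43 (rank 97718), and the authors' deposited table gave 3.94 on the log2 scale for Nfib amplification (SE 0.74, adjusted p = 2.974e-06). The other 4 pairs furthest ahead in the CMV list, on chromosome 4 at 87842126, 86742326 and 125032155 and on chromosome 16 at 71392317, were in no merged peak. In the opposite direction, chromosome 7 at 74768432 had a CMV score of 14.77 (rank 95824) and a CGRP score of 777.9 (rank 6324), and its log2 value with Nfib amplification was -3.90 in the authors' deposited table (SE 0.45, adjusted p = 1.895e-14). Chromosome 1 at 62814396 (ranks 96542 and 7396) had -3.04 (SE 0.55) and chromosome 9 at 78428009 (ranks 97947 and 10781) had -1.79 (SE 0.59) in the authors' deposited table. Chromosome 19 at 60631047 (ranks 99695 and 9862) and chromosome 7 at 53502410 (ranks 95819 and 7579) were in no merged peak.

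Few CMV-only peaks were called in the authors' comparison of CGRP liver metastases with CGRP lung tumors, and CGRP-only peaks were called lower at a share above that of all peaks. That comparison includes all 14 CGRP-pool libraries, 4 of the mixed pool and none of the CMV pool. Over all peaks 0.779% were lower and 0.0752% higher in metastases. Of 12829 tested peaks with a CMV-only summit, 19 (0.148%) were lower and 2 (0.0156%) higher in the authors' deposited table, at a median SE of 0.91 against 0.49 over all peaks. Of 5441 tested peaks with a CGRP-only summit, 127 (2.33%) were lower and 6 (0.110%) higher, and the median was -0.20 on the log2 scale (median SE 0.53) in the authors' deposited table. The excess was at those with a mixed-pool summit, of which 2.48% of 5039 were lower and 0.0794% higher. Of 404 without one, 0.495% were lower and 0.495% higher, with a median of 0.30, all in the authors' deposited table. The same libraries define both sets, CGRP-only sites by a summit in the CGRP list and CMV-only sites by the lack of one. Few calls at CMV-only peaks are therefore no independent result, and the counts for both sets are a description.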

How the data were processed

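ATAC-seq libraries of mouse tumors were pooled by the authors before peaks were called, per the labels, which name 1 summit list for each library. Per the submitters' processing notes, which state no roles, the tools were MACS2, Bowtie2 and DESeq2 and the build was mm9. Read trimming, duplicate removal and any Tn5 shift: not given in the sources used here. The deposited summit score was read as −log10 of a q-value from its smallest value of 1.30. Mean counts (a signal the authors normalised), log2 fold changes, SEs and adjusted p-values are the authors' values, per the file headers. Peaks whose adjusted p was NA (170 for Nfib, 8922 for liver) were left out of counts. A peak was called at the authors' adjusted p under 0.05.

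Here, summits were ranked by score, matched to the nearest summit of another list, and counted by rank, distance, chromosome and window; the matching was tested on simulated data. The members, lists and rules were chosen with earlier results of these data known. Named sites are the 5 best-scoring of each kind, and named windows the 5 with the greatest excess each way; exceptions are stated. The reference at hand was of another build, GRCm38, so gene loci, promoters, tissue markers, motifs and sequences were not analysed here, and coordinates (1-based, mm9) stand in for genes. Plots were drawn with matplotlib 3.10.9; intervals came from scipy 1.17.1, and tables from pandas 2.3.3 and numpy 2.4.6 under Python 3.11.15.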

Additional observations from a re-analysis of the deposited data

How the results depend on the processing

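The shared percentage was slightly higher for the CMV than for the CGRP list as reported, and lower at 1000 bp and at a score of at least 5. Alternatives without chromosome 4, with a shortened CMV list, and with the top 50000 for the Nfib and density results were chosen after seeing the data. Top summits shared with the other top list were 61.01% (CMV) and 60.96% (CGRP) at 100 bp, 67.11% and 67.06% at 500 bp, 69.0% and 70.6% at 1000 bp, 64.1% and 63.8% for the top 50000, 59.7% and 68.1% at a score of at least 5, and 65.0% of CGRP summits for the top 25000. CMV-only and CGRP-only summits numbered 6768 and 1934 in the top 50000, and 1811 and 235 in the top 25000. At a score of at least 5 they numbered 60059 of 167415 CMV and 34002 of 144769 CGRP summits. A mixed-pool summit lay near 66.1% of CMV-only and 78.7% of CGRP-only summits at 100 bp, 79.0% and 87.0% at 500 bp, and 74.5% and 81.6% without chromosome 4. Peaks with a CMV-only summit were higher with Nfib amplification in 64.4% by the second deposited test, 92.5% at a mean count of at least 20, 92.2% for the top 50000 and 82.6% without chromosome 4. Peaks with a CGRP-only summit were lower in 26.6%, 55.35%, 67.6% and 43.2% in the same order, and in 41.3% with the CMV list shortened. The sparsest-fifth ratio ran from 1.62 to 1.83 and the densest from 0.813 to 0.841. Gene list, promoter and nearest-gene alternatives were not run for want of mm9 gene positions. No paired analysis was possible because each vector is 1 pooled list, and no library could be left out. Read depth per pool is unknown here, so an absent summit may be a weak site.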
